A study of Mus musculus with 18 samples.

Results

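The AP-1 and EGR immediate early genes were followed in E0771 cells, a mouse triple-negative mammary carcinoma line, by RNA sequencing of bulk cultures. The set was given as a list of 10 genes: the Fos family (Fos, Fosb, Fosl1, Fosl2), the Jun family (Jun, Junb, Jund), Egr1, Egr2 and Atf3. All 10 were among the 50686 genes of the count files, and 8 of them were among the 12772 genes tested, since Fos and Egr2 fell under the filter on low counts. The cells carried CMV-driven firefly luciferase and a retroviral short hairpin RNA, and were sorted for the mCherry of the hairpin vector. The control hairpin, non-targeting and directed against Renilla luciferase, is called cntrl here. Knockdown lines carried a Cdk8 hairpin, CDK8.1593 or CDK8.1830. Each line was kept in medium with 10% FCS and was given DMSO or 1 µM Senexin B (SnxB), an inhibitor of the kinases CDK8 and CDK19, for 48 h. This made 6 groups of 3 libraries each, and the 18 libraries held 16452260 to 22664693 counted reads. Each hairpin was present in 1 sorted line, so the effect of a hairpin and of the line that carried it cannot be told apart. Whether the 3 libraries of a group came from separate cultures is not stated in the labels, so p-values measure the spread between these libraries, which may be technical.

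Immediate early genes are transcribed within minutes of a stimulus such as serum, without new protein synthesis, mostly through serum response factor and its partners on CArG boxes and through CREB and ATF proteins on cAMP response elements. Fos and Jun proteins pair through leucine zippers into AP-1, which binds the TPA response element, Egr1 and Egr2 are zinc finger factors of GC-rich sites, and Atf3 is a stress-induced relative that pairs with Jun proteins. CDK8, the kinase of the Mediator kinase module, is known as a coregulator of the serum response. In steady culture Fos, Fosb, Egr1 and Egr2 are usually silent again after the pulse, while Fosl1, Fosl2, Jun and Jund can stay on in tumour cells.

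The start regions of 4 members are shown because they stand for the pattern described next. Jun and Atf3 were on in every group and fell with both hairpins, whereas Fos and Egr2 were near 0 in every group. The windows come from RefSeq (GRCm38.p6) and run from 250 bases before to 50 bases after a start. Windows were found for 8 of the 10 members, and none for Fosl1 and Egr1. Capitals mark motif matches on either strand. They are TGACATCA in Jun (chr4:95052173-95052472, minus strand), TTACGTCA in Atf3 (chr1:191183284-191183583, minus strand), TATAAA in Fos (chr12:85473640-85473939, plus strand) and a CArG box in Egr2 (chr10:67537619-67537918, plus strand).
Jun: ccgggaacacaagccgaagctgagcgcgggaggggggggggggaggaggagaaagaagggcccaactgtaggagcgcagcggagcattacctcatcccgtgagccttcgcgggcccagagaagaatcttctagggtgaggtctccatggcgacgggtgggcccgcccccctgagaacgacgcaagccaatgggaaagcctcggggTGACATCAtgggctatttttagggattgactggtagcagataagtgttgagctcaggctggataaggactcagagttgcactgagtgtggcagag
Atf3: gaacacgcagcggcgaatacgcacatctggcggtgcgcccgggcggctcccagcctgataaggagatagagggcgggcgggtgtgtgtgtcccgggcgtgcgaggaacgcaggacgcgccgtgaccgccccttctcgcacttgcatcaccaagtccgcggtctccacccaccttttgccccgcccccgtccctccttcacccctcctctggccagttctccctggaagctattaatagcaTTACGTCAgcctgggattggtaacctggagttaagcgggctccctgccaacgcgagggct
Fos: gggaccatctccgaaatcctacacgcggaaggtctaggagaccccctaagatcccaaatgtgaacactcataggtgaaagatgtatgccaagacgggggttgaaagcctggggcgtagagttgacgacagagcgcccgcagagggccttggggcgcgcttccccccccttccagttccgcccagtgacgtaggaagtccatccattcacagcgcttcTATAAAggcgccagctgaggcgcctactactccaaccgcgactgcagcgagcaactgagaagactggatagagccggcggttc
Egr2: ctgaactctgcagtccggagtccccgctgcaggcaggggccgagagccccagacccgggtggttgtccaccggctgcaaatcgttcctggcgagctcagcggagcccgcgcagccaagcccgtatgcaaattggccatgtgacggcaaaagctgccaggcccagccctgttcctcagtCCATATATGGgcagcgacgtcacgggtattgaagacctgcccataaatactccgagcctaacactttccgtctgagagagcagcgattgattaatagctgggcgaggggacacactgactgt

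The CArG box was present in windows of 1 member gene, Egr2, against 1.63% of 32851 promoter windows. It matched in 4 Egr2 windows, but some of these overlap and hold the same CCATATATGG at chr10:67537797-67537806, so the matches are not separate sites. The TPA response element TGANTCA (7.81% of all windows) and the full cAMP response element TGACGTCA (1.79%) had no match in a member window. The relaxed forms TGACNTCA (8.83%) and TNACGTCA (2.93%), searched after the Jun and Atf3 windows had been read, matched Jun at -45 and Atf3 at -10 from the start. Where the words overlap, TGACGTCA is contained in both relaxed forms. The EGR site GCGNGGGCG (5.55%) was found in Fosl2 at -79 and in Fosb at -50, and TATAAA (13.6%) in Fos at -33 and at the start of Junb. The Jun and Fos starts equal the gene starts of the count annotation, whereas the Atf3 window lies 34706 bases inside the annotated Atf3 gene and the Jund window 1210 bases before the Jund gene. A match is a description of the letters and not evidence of a factor there. Bases more than 250 before a start were not searched, so a missing match does not show that a gene lacks the motif.

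The Cdk8 hairpins checked the labels. Cdk8 was at 56.1 ± 2.13 CPM (mapped read counts scaled to a common library depth with TMM factors; SD, n = 3) in cntrl DMSO, at 21.4 ± 2.44 in CDK8.1593 DMSO and at 38.9 ± 0.376 in CDK8.1830 DMSO. Residual Cdk8 was thus lower with CDK8.1593. Its paralogue Cdk19 was higher with both hairpins, by 0.42 and 0.13 on the log2 scale (edgeR quasi-likelihood test, adjusted p = 4.49e-08 and 0.0161). Of the 10 epithelial and mesenchymal markers, Krt18, Krt19, Cdh2 and Fn1 stayed at 3 counts or fewer in all 6 groups, and Epcam, Krt7 and Krt8 too in cntrl DMSO. The list summed to 4573 to 4742 CPM there, 3936 to 4107 CPM in CDK8.1593 DMSO and 4282 to 4406 CPM in CDK8.1830 DMSO, with 2 of 4 tested genes higher and 2 lower for CDK8.1593 and 1 each way for CDK8.1830. Among the 8 leukocyte markers, Cd3e, Itgam, Nkg7 and Adgre1 were among those that stayed at 3 counts or fewer in all 6 groups, Lyz2 was the 1 gene tested (lower with both hairpins), and the list summed to 4.68 to 5.29 CPM in cntrl DMSO against 1.94 to 2.43 and 1.86 to 2.74 CPM with the hairpins. The 8 endothelial and stromal markers summed to 552.8 to 562.1 CPM in cntrl DMSO, 411.5 to 462.1 CPM in CDK8.1593 DMSO and 424 to 453.9 CPM in CDK8.1830 DMSO, with 3 of 6 tested genes higher and 3 lower for CDK8.1593 and 2 higher and 3 lower for CDK8.1830. The epithelial and mesenchymal and the endothelial and stromal sums rest on a few abundant genes, and some low markers went the other way. Krt8 went from 0.0549 to 7.51 and 13.04 CPM, Pecam1 from 0.286 to 14.3 and 5.85 CPM and Col1a1 from 0.780 to 16.6 and 9.91 CPM. Cdh5, an endothelial marker that was also low, fell from 4.34 to 0.206 and 0.595 CPM. These lists moved with the hairpin lines, and their part in the results for the members was not tested. Of all tested genes, 30.1% and 29.0% passed as higher and 29.5% and 28.1% as lower (CDK8.1593 first). In bulk RNA, fewer cells with a transcript and less of it per cell cannot be told apart. CDK8.1830 DMSO replicate 3 stood apart through a few genes and had the highest rRNA-like share of counts (0.823%). The next highest share was 0.206%, in CDK8.1593 SnxB replicate 3. CDK8.1593 DMSO replicate 2 had the lowest mitochondrial share of counts (0.448%). Over the 10056 genes with at least 100 counts in some library, 7 were more than 3-fold higher in their highest library than in the next, 6 of them in CDK8.1830 DMSO replicate 3 (Mir6236, Gm15564, Gm23935, Rn7sk, Lars2 and Gm42418). The remaining gene was a member, Egr1 in cntrl SnxB replicate 2.

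In cntrl DMSO the AP-1 transcripts were mainly Fosl1, Jund and Jun. Per length, as CPM per kb of exon, Fosl1 was at 77.8 ± 0.363 (SD, n = 3), Jund at 70.2 ± 1.98 and Jun at 54.6 ± 1.74. Junb followed at 16.9 ± 1.13, Atf3 at 10.5 ± 0.676 and Fosl2 at 9.87 ± 0.237. Atf3 and Fosl2 differed by less than the SD of Atf3. Egr1 (0.189 ± 0.0679), Fosb (0.165 ± 0.0145) and Fos (0.110 ± 0.0856) lay far under these and overlapped with each other, and Egr2 had no read. So the Fos family share of all Fos and Jun transcripts, 38.3 ± 0.117% (SD, n = 3), was almost all Fosl1 (33.9 ± 0.136%), a partner without a transactivation domain, with Fosl2 at 4.30 ± 0.0811%. Jund made up 30.6 ± 0.680%, Jun 23.8 ± 0.918% and Junb 7.35 ± 0.434%.

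**Figure D1:**
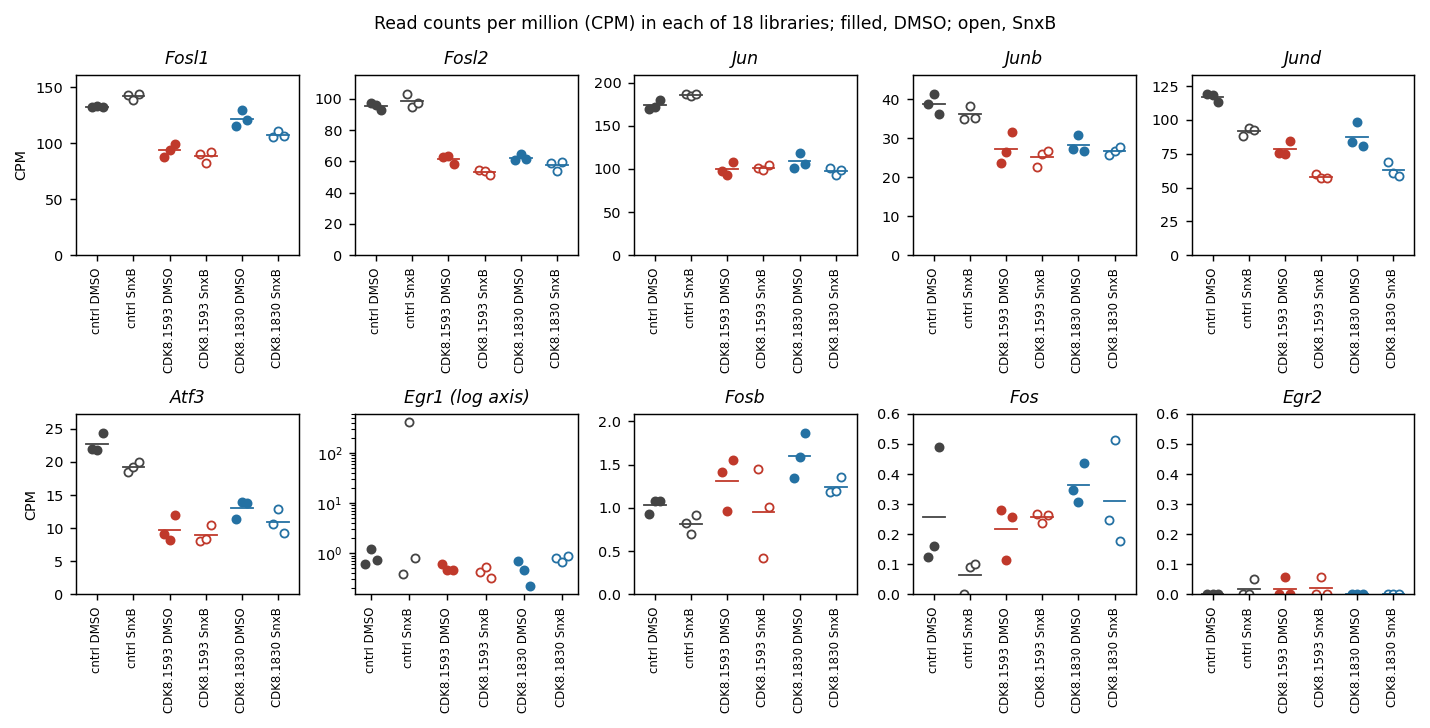
CPM of each of the 10 genes in all 18 libraries (y axis, TMM-scaled; linear, except a log axis for Egr1), by group on the x axis, with filled points for DMSO, open points for SnxB and a line at the mean of 3 libraries (no line for Egr1). Jun, Fosl2, Junb and Atf3 sit lower in all 12 knockdown libraries than in the 6 cntrl libraries, Jund steps down again with SnxB in each line, and Egr1 is at 415 CPM in 1 library and at 0.219 to 1.19 CPM in the other 17.

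The same 6 members were lower in both knockdown lines in DMSO. With CDK8.1593 against cntrl, 6 of the 8 tested members passed (adjusted p under 0.05, edgeR quasi-likelihood test), all lower, where 59.6% of all tested genes passed either way and 29.5% passed and were lower. With CDK8.1830 against cntrl, 6 of 8 passed, all lower, where 57.1% of genes passed either way and 28.1% were lower. The median log2 fold change was -0.58 and -0.45 over 7 members (Egr1, which was high in 1 library, left out), beside 0.00613 and 0.0129 over all tested genes. The libraries of cntrl and knockdown cells did not overlap for any of the 6 passing members in either comparison, and both comparisons share the cntrl libraries. The share of all tested genes whose libraries did not overlap in these comparisons was not counted. Leaving out 1 library at a time kept 6 members for CDK8.1593 and 5 to 6 for CDK8.1830. Without CDK8.1830 DMSO replicate 3, which stood apart, 5 passed, and Fosl1 was the member lost.

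Jun (chr4:95049034-95052222, minus strand, 1 exon), the founding Jun protein and a strong activator, fell with both hairpins. Its level was 169.8, 172 and 180.4 CPM in the cntrl DMSO libraries, 98.1, 93.4 and 108 CPM in CDK8.1593 DMSO and 102, 119 and 106 CPM in CDK8.1830 DMSO. Every knockdown library lay under every cntrl library. The log2 fold change was -0.80 ± 0.05 for CDK8.1593 and -0.68 ± 0.05 for CDK8.1830 (SE, adjusted p = 8.44e-11 and 1.3e-09), and the hairpins did not differ beyond the threshold (0.12 ± 0.05, adjusted p = 0.129).

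Jund (chr8:70698949-70700616, plus strand, 1 exon), the broadly expressed Jun protein that is little induced by serum, fell as well. It was at 119, 118 and 113 CPM in cntrl DMSO, 75.8, 74.5 and 84.4 CPM in CDK8.1593 DMSO and 84.0, 98.5 and 80.7 CPM in CDK8.1830 DMSO. The knockdown libraries all lay lower, those of CDK8.1830 with a wider spread. Its log2 fold change was -0.58 ± 0.07 and -0.41 ± 0.07 (adjusted p = 2.62e-07 and 2.05e-05). Junb can oppose Jun on AP-1 sites. It was at 38.9, 41.4 and 36.2 CPM in cntrl DMSO, 23.7, 26.4 and 31.7 CPM in CDK8.1593 DMSO and 27.3, 30.9 and 26.9 CPM in CDK8.1830 DMSO, with log2 fold changes of -0.51 ± 0.09 and -0.45 ± 0.09 (adjusted p = 4.28e-05 and 0.000167).

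The Fos family members that were on behaved unequally. Fosl2 (Fra-2), a Fos relative without the strong activation domain of Fos, was at 97.4, 96.3 and 93.0 CPM in cntrl DMSO, 62.5, 63.6 and 58.4 CPM in CDK8.1593 DMSO and 60.7, 65.0 and 61.6 CPM in CDK8.1830 DMSO. The fall was nearly the same with both hairpins, -0.64 ± 0.05 and -0.61 ± 0.05 on the log2 scale (adjusted p = 5.09e-10 and 1.09e-09), and the difference between hairpins was 0.02 ± 0.05 with a 95% interval of -0.07 to 0.12.

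Fosl1 (Fra-1; chr19:5447703-5455945, plus strand), linked to invasive breast cancer cells, separated the hairpins. Its level was 133, 134 and 132 CPM in cntrl DMSO, 87.6, 94.2 and 99.6 CPM in CDK8.1593 DMSO and 116, 129.5 and 121 CPM in CDK8.1830 DMSO. CDK8.1593 libraries lay under all others, and those of CDK8.1830 just under cntrl. The log2 fold change was -0.50 ± 0.05 for CDK8.1593 (adjusted p = 3.44e-08) but -0.12 ± 0.05 for CDK8.1830 (adjusted p = 0.0408), and that second call was lost when edgeR used library totals (adjusted p = 0.127), with DESeq2 (0.0516), with no filter (0.0704) and in 5 of 6 fits with 1 library left out (cntrl DMSO replicates 1, 2 or 3, or CDK8.1830 DMSO replicates 1 or 3; highest adjusted p = 0.164). Between hairpins, Fosl1 was higher in CDK8.1830 by 0.38 ± 0.05 (adjusted p = 1.51e-05).

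Atf3 (chr1:191170296-191218039, minus strand) had the largest estimated fall of the 6 with either hairpin in DMSO. For CDK8.1830 its 95% interval (-1.04 to -0.57) overlapped that of Jun (-0.79 to -0.58). Atf3 was at 21.9, 21.7 and 24.4 CPM in cntrl DMSO, 9.12, 8.15 and 11.9 CPM in CDK8.1593 DMSO and 11.4, 14.0 and 13.8 CPM in CDK8.1830 DMSO. All cntrl libraries were above all knockdown libraries, whereas the 2 knockdown lines overlapped. The log2 fold change was -1.22 ± 0.12 for CDK8.1593 (adjusted p = 4.98e-08) and -0.80 ± 0.12 for CDK8.1830 (adjusted p = 8.99e-06). With CDK8.1593 it was the 1 member lowered more than 2-fold, where 7.14% of all tested genes passed and were lower by that much, and with CDK8.1830 no member reached 2-fold, where 5.95% did.

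Direct comparison of the hairpins in DMSO called 2 of 8 members, both higher in CDK8.1830, where 21.1% of genes passed either way and 11.2% were higher in CDK8.1830. These were Fosl1 and Atf3. The Atf3 difference, 0.41 ± 0.13 (adjusted p = 0.0299), passed in 2 of 6 fits with 1 library left out, and not without CDK8.1593 DMSO replicate 1 or 2 or CDK8.1830 DMSO replicate 2 or 3 (adjusted p up to 0.145). Without CDK8.1593 DMSO replicate 3, Jun (0.18 on the log2 scale, adjusted p = 0.0322) and Jund (0.22, adjusted p = 0.044) passed too.

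**Figure D2:**
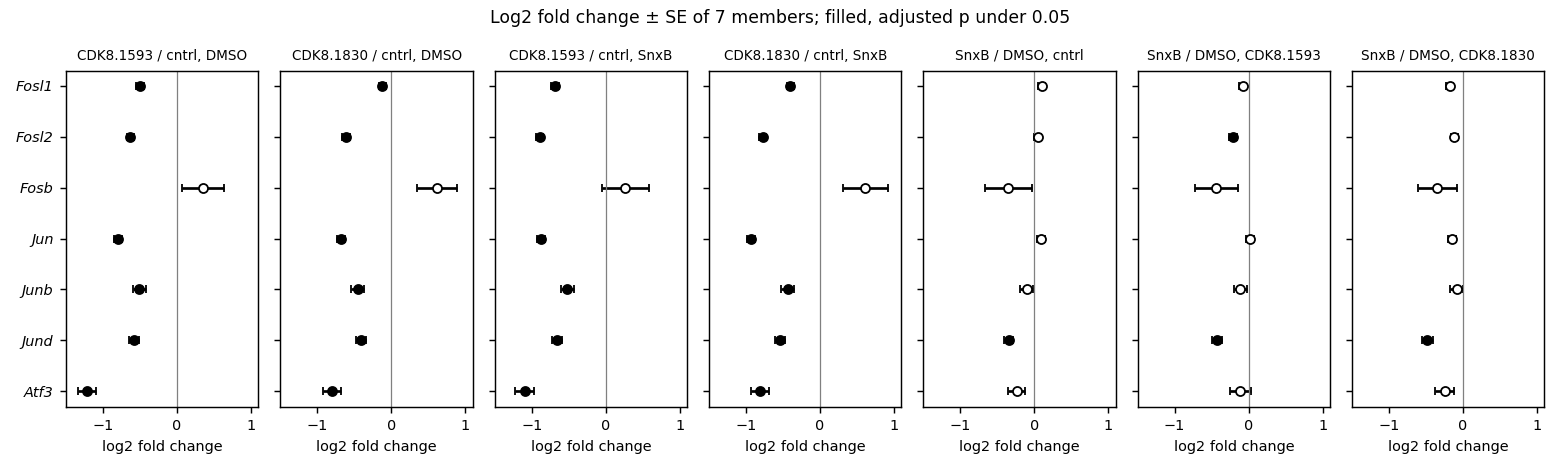
Log2 fold change (x axis) ± SE of 7 members (y axis; Egr1 left out) in 4 comparisons of a hairpin with cntrl and 3 of SnxB with DMSO, with filled points for adjusted p under 0.05. Fosl1, Fosl2, Jun, Junb, Jund and Atf3 lie left of 0 in all 4 hairpin comparisons, and Jund is the member that is filled in all 3 SnxB comparisons.

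SnxB changed few members. In cntrl cells 2 of 8 passed, Jund (lower) and Egr1 (higher), where 5.54% of genes passed either way, 2.14% were lower and 3.41% were higher. Egr1 rests on 1 library, and without cntrl SnxB replicate 2 it was at -0.48 (adjusted p = 0.628) and 1 member passed. In CDK8.1593 cells 2 of 8 passed, Jund and Fosl2, both lower, where 1.48% of genes passed and 0.564% were lower. In CDK8.1830 cells only Jund of the 8 passed, where 2.05% passed and 1.06% were lower. The median over the 7 members other than Egr1 was -0.10, -0.11 and -0.18 in cntrl, CDK8.1593 and CDK8.1830 cells, beside 0.00574, 0.0071 and -0.00162 over all tested genes.

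Jund responded to SnxB in every line. It was at 88.2, 94.4 and 92.8 CPM in cntrl SnxB, 60.0, 56.7 and 57.3 CPM in CDK8.1593 SnxB and 68.9, 60.5 and 58.9 CPM in CDK8.1830 SnxB, and in each line all SnxB libraries lay under all DMSO libraries. The log2 fold change was -0.35 ± 0.07 in cntrl, -0.43 ± 0.07 in CDK8.1593 and -0.48 ± 0.07 in CDK8.1830 cells (adjusted p = 0.00227, 0.00151 and 0.000358), and each call held in all 6 fits with 1 library left out. Of all tested genes, 30 (0.235%) passed and were lower with SnxB in all 3 lines. The interaction of SnxB with the hairpin was -0.08 ± 0.10 for CDK8.1593 (95% interval -0.27 to 0.11, adjusted p = 0.795) and -0.13 ± 0.10 for CDK8.1830 (95% interval -0.32 to 0.06, adjusted p = 0.961). Mean Jund went from 117 CPM in cntrl DMSO to 58.0 CPM in CDK8.1593 SnxB and 62.8 CPM in CDK8.1830 SnxB.

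The other members that were on moved little with SnxB. Jun was at 187, 184 and 187 CPM in cntrl SnxB, 101, 98.7 and 104 CPM in CDK8.1593 SnxB and 101, 93.4 and 98.5 CPM in CDK8.1830 SnxB, with log2 fold changes of 0.09 ± 0.05, 0.02 ± 0.06 and -0.15 ± 0.05 against DMSO (adjusted p = 0.369, 0.897 and 0.206). Fosl1 was at 143, 139 and 144 CPM, 90.7, 82.2 and 92.5 CPM and 106, 111 and 106 CPM in the same order, with log2 fold changes of 0.10 ± 0.05, -0.08 ± 0.05 and -0.18 ± 0.05 (adjusted p = 0.311, 0.484 and 0.0695). Neither gene passed in a line, except Fosl1 in CDK8.1830 cells when no filter was used (-0.18, adjusted p = 0.0361), although in cntrl cells every SnxB library of both lay above, and in CDK8.1830 cells below, every DMSO library. Across all tested genes such opposite shifts were found for 52 (0.407%) between cntrl and CDK8.1830 and for 80 (0.626%) between cntrl and CDK8.1593, where no member showed one.

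Fosl2 passed in CDK8.1593 cells, where it went from 61.5 to 53.1 CPM in the mean (-0.21 ± 0.05, adjusted p = 0.035). That call was lost in 4 of 6 fits with 1 library left out (CDK8.1593 DMSO replicate 1 or 2, CDK8.1593 SnxB replicate 2 or 3; adjusted p up to 0.174) and when only the 2 groups compared were fitted (0.174). Atf3 (-0.24 ± 0.12, -0.11 ± 0.14 and -0.25 ± 0.13) and Junb (-0.10 ± 0.09, -0.11 ± 0.09 and -0.09 ± 0.09) did not pass in any line. A miss at this replication does not show that their levels were the same.

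No member passed either interaction of SnxB with a hairpin in the edgeR fit with the filter on low counts, where 0.305% of genes passed for CDK8.1593 and 0.0548% for CDK8.1830. An unadjusted p under 0.05 was found for 1264 of the 12772 tested genes for CDK8.1593 and for 748 for CDK8.1830. Of the members there were 2 for CDK8.1593, namely Fosl1 (-0.18 ± 0.07) and Fosl2 (-0.26 ± 0.07). For CDK8.1830 there were 3, namely Fosl1 (-0.28 ± 0.07), Fosl2 (-0.16 ± 0.07) and Jun (-0.25 ± 0.08). All 5 values are negative, so for these genes the SnxB difference lay lower in knockdown than in cntrl cells. The smallest adjusted p among them was 0.18. Both interactions use the same cntrl libraries, and the genes were picked by unadjusted p, so the shared sign is not independent evidence. DESeq2 passed 0 members in both interactions. The edgeR fit with no filter passed 2 members in each, namely Fosl2 (-0.28, adjusted p = 0.0276) and Egr1 for CDK8.1593 and Fosl1 (-0.30, adjusted p = 0.024) and Egr1 for CDK8.1830, and Egr1 rests there on 1 library. That fit called 389 and 44 of all genes for the 2 interactions, against 39 and 7 with the filter.

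With SnxB on both sides, the hairpin comparisons passed 7 of 8 members each, all lower. For CDK8.1593, 60.6% of genes passed and 30.1% were lower, and for CDK8.1830, 56.7% passed and 28.6% were lower. Among the 7 is Egr1, which rests on a single cntrl library. The other 6 are those that passed in DMSO, and all 6 passed with both hairpins in DMSO and in SnxB, as did 2722 of all tested genes (21.3%) in the lower direction. For Atf3 the log2 fold change was -1.09 ± 0.13 and -0.81 ± 0.13, for Jun -0.87 ± 0.05 and -0.93 ± 0.05, for Fosl2 -0.89 ± 0.05 and -0.78 ± 0.05, for Jund -0.66 ± 0.07 and -0.55 ± 0.07, for Junb -0.52 ± 0.09 and -0.44 ± 0.09 and for Fosl1 -0.68 ± 0.05 and -0.40 ± 0.05 (CDK8.1593 first; adjusted p at most 0.000284). Under SnxB the CDK8.1830 libraries of Fosl1, at 106, 111 and 106 CPM, were clearly apart from those of cntrl at 143, 139 and 144 CPM, and the call held in all 6 fits with 1 library left out. The comparisons of a hairpin in DMSO and in SnxB use different libraries.

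**Figure D3:**
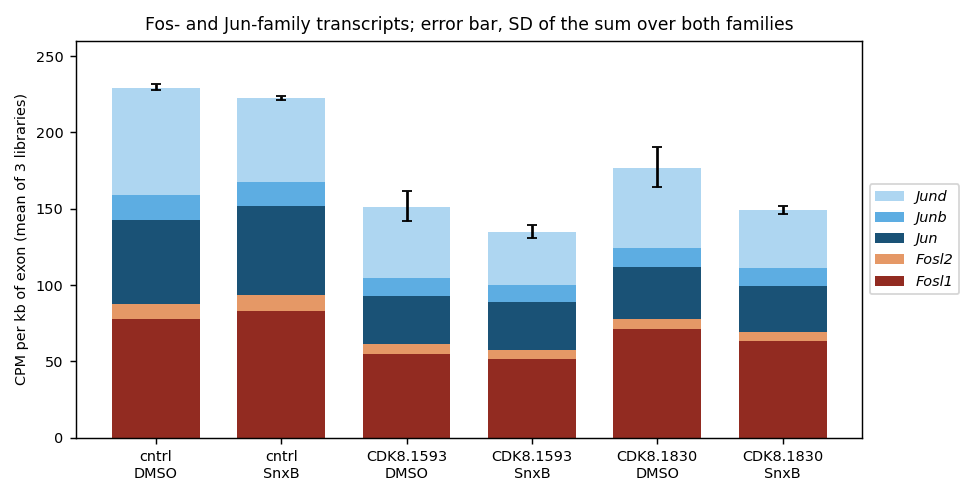
Mean level of Fosl1, Fosl2, Jun, Junb and Jund in CPM per kb of exon (y axis, from 0), stacked for each of the 6 groups (x axis), with the SD over 3 libraries of the sum over both families, Fos and Fosb included. The bars of both knockdown lines are lower than those of cntrl, and the Fosl1 section takes its largest share with CDK8.1830.

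The sum of Fos and Jun transcripts fell with the hairpins and its make-up shifted. It was 229.6 ± 1.87 CPM per kb (SD, n = 3) in cntrl DMSO, 152 ± 9.94 in CDK8.1593 DMSO and 177 ± 13.3 in CDK8.1830 DMSO, and with SnxB 223 ± 1.39, 135 ± 4.4 and 149 ± 2.77 in the same order. The Fosl1 share was 33.9 ± 0.136% in cntrl DMSO, 36.2 ± 1.06% in CDK8.1593 DMSO and 40.3 ± 1.01% in CDK8.1830 DMSO, and the Jun share was 23.8 ± 0.918%, 20.6 ± 0.705% and 19.2 ± 0.287%. The library ranges of the Jun share did not overlap between cntrl DMSO (23.2 to 24.9%) and CDK8.1593 DMSO (19.9 to 21.3%) or CDK8.1830 DMSO (18.9 to 19.5%). With SnxB the Jund share in cntrl went from 30.6 ± 0.680% to 24.7 ± 0.793%. With 3 libraries against 3, an exact permutation test of such a share cannot go below p = 0.10, so the ranges are given without one.

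Egr1, a zinc finger factor that is among the earliest genes to respond to growth factors, was high in 1 library of 18. It had 8937 reads (415 CPM) in cntrl SnxB replicate 2, and 10, 22 and 15 reads in cntrl DMSO, 13, 8 and 9 in CDK8.1593 DMSO, 16, 9 and 4 in CDK8.1830 DMSO, 8, 9 and 6 in CDK8.1593 SnxB and 16, 12 and 15 in CDK8.1830 SnxB. The other cntrl SnxB libraries had 7 and 16 reads. The high library was 347.7-fold above the next in CPM. On library totals the ratio was 341.6-fold, and the gene that came next of 10056, Mir6236, was at 6.845-fold. So the SnxB call in cntrl cells (7.35 ± 1.66, adjusted p = 0.00982) and the calls of CDK8.1593 (-8.34 ± 1.84) and CDK8.1830 (-7.46 ± 1.68) against cntrl in SnxB rest on 1 library. Without it, the values were -0.48, -0.52 and 0.36 (adjusted p = 0.628, 0.356 and 0.481). The SnxB call was also lost without any 1 of the cntrl DMSO libraries (adjusted p = 0.0517 to 0.0577) and when only the 2 groups compared were fitted (0.0941). In DMSO, Egr1 was at 0.848 ± 0.304 CPM in cntrl, 0.510 ± 0.0870 in CDK8.1593 and 0.458 ± 0.239 in CDK8.1830 cells, and its comparisons there had SEs of 4.21 and 4.24 on the log2 scale. These SEs come from the 1 fit over all 18 libraries, the high one included, and not from the DMSO libraries alone. With no filter on low counts, CDK8.1830 against cntrl was at -0.83 with adjusted p = 0.0477, on 4 to 22 reads a library.

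No other early gene came near Egr1 in that library. Against the mean of cntrl SnxB replicates 1 and 3, the 7 other tested members lay between -0.32 (Fosb) and 0.12 (Junb) on the log2 scale with a median of -0.02, Fos had 2 reads and Egr2 had 0. The 39 other immediate early genes averaging 1 CPM or more lay between -0.53 (Btg2) and 0.22 (Dusp2), the 18 feedback inhibitors of ERK and EGR between -0.19 (Spry4) and 0.42 (Spry1), and the 6 heat shock genes between -0.21 (Hspa1b) and 0.06 (Hsph1). The 25 other tested genes within 1 Mb of Egr1 lay between -0.21 and 0.47. Among the marker genes Lyz2 was at 0.75 and Col1a1 at -0.62 (Krt8, with at most 1 read a library in cntrl SnxB, gives no ratio), and the part of any of these in the Egr1 reads was not tested.

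**Figure D4:**
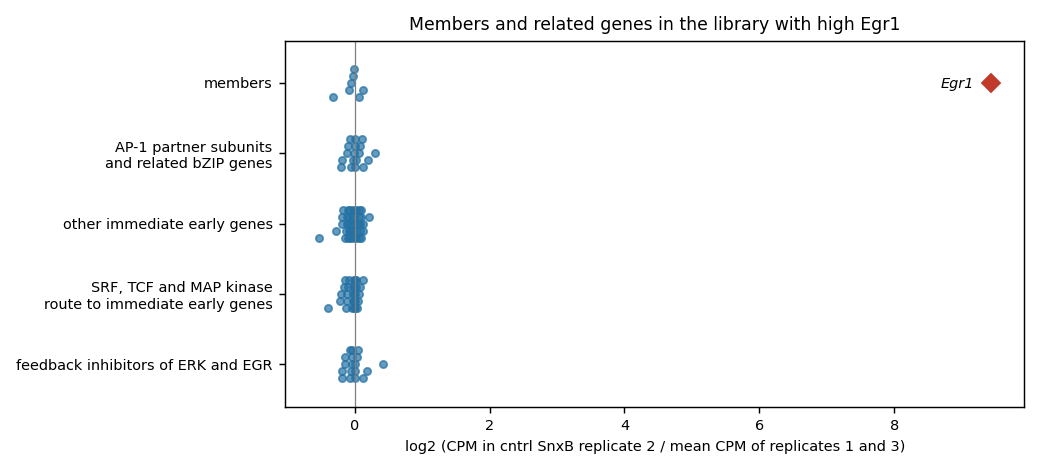
Log2 ratio of the CPM in cntrl SnxB replicate 2 to the mean CPM of replicates 1 and 3 of the same group (x axis), 1 point per gene, for the members and 4 lists of related genes (y axis). Egr1 (red) is far to the right, while every other point lies between -0.53 and 0.42.

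The members at the floor are given as counts. Fos, the classical serum-induced gene, had 2, 3 and 10 reads in cntrl DMSO, 6, 2 and 5 in CDK8.1593 DMSO, 8, 6 and 8 in CDK8.1830 DMSO, 0, 2 and 2 in cntrl SnxB, 5, 4 and 5 in CDK8.1593 SnxB and 5, 9 and 3 in CDK8.1830 SnxB. The cntrl SnxB libraries reached 2 reads at most, those of CDK8.1830 DMSO held 6 to 8, and most other groups overlapped. Egr2 had 3 reads over all 18 libraries and 0 to 1 in each, where a count of 0 allows up to 3 reads, or 0.132 to 0.182 CPM, for counting error only. Fosb, a Fos relative best known from neurons, was low but measurable, at 0.924, 1.08 and 1.08 CPM in cntrl DMSO, 1.41, 0.969 and 1.55 in CDK8.1593 DMSO and 1.35, 1.58 and 1.86 in CDK8.1830 DMSO. Its log2 fold change was 0.35 ± 0.28 with CDK8.1593 and 0.61 ± 0.27 with CDK8.1830 (adjusted p = 0.303 and 0.0629), and all CDK8.1830 libraries lay above all cntrl libraries. When only the 2 groups compared were fitted, the CDK8.1830 value was 0.62 (adjusted p = 0.0324).

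Across the 18 libraries, the genes most like a member were taken for the 3 members with the widest range of group means. For Atf3 (range 1.29 on the log2 scale) these were Trmt10a, Zfand2a and Mfge8, with Pearson r of 0.967, 0.964 and 0.962 among 9641 genes. For Jund (range 1.01) Ppard and Klf2 came first, with r of 0.968 and 0.964. For Egr1 (range 3.09) the highest was Crnkl1, with r of 0.715, and that pattern is the 1 high library. The libraries share groups and scaling, so these values describe likeness and carry no test.

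Of the partner subunits of AP-1 and related leucine zipper genes, more passed as lower than as higher. Of 18 tested of 23, CDK8.1593 raised 4 and lowered 11, and CDK8.1830 raised 3 and lowered 11, where 30.1% and 29.0% of all tested genes rose and 29.5% and 28.1% fell, with medians of -0.14 and -0.19 beside 0.01 and 0.01 over all tested genes. Crem, a cAMP-responsive repressor and activator, fell (-3.43 and -2.73 on the log2 scale), Creb5 (-2.60 and -2.10) and Jdp2, a Jun dimerization partner, (-1.05 and -0.93), whereas Batf, which pairs with Jun proteins in lymphoid cells, rose by 1.79 and 1.60 (each adjusted p at most 8.87e-10). With SnxB in cntrl cells 1 of the 18 passed, Crem (-0.35, adjusted p = 0.00222), where 5.54% of all tested genes passed.

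Other immediate early genes passed in both directions, with CDK8.1830 at shares near those of all tested genes. Of 41 tested of 42, CDK8.1593 raised 14 and lowered 19 and CDK8.1830 raised 9 and lowered 13, where 30.1% and 29.0% of all tested genes rose and 29.5% and 28.1% fell, with medians of -0.10 and -0.06 beside 0.01 and 0.01 over all tested genes. Gem, a small GTP-binding protein, went from 64.0 CPM in cntrl DMSO to 8.54 and 10.7 CPM. Lif, a cytokine of the interleukin-6 family, fell (-2.36 and -1.63) and Klf2, a Krüppel-like factor, (-1.53 and -1.09), while Ccn2, a matricellular protein, rose by 1.02 and 1.00. With SnxB in cntrl cells 9 rose and 2 fell, where 3.41% of all tested genes rose and 2.14% fell, among them Sgk1, a serum-induced kinase (0.53), and F3, tissue factor (0.47), which rose, and Klf2 (-0.78) and Lif (-0.56), which fell. Klf2 fell with SnxB in all 3 lines, at -0.62 in CDK8.1593 and -0.87 in CDK8.1830 cells (adjusted p = 0.00936 and 0.000189), as Jund did.

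Genes of the upstream route passed about as often as all tested genes. Of the 31 genes of the serum response factor, ternary complex factor and MAP kinase list, CDK8.1593 raised 10 and lowered 10, and CDK8.1830 raised 8 and lowered 9, where 30.1% and 29.0% of all tested genes rose and 29.5% and 28.1% fell, with medians of 0.01 and -0.02. Map2k6, an activator of p38, fell (-1.52 and -1.33), Rps6ka5 (MSK1), a histone kinase of early genes, (-0.93 and -0.89), and Elk3, a ternary complex factor, (-0.47 and -0.51), while Rps6ka1 (RSK1) rose by 1.29 and 0.86. Srf itself rose with SnxB in cntrl cells (0.32, adjusted p = 9.16e-05) and Map2k6 fell (-0.25, adjusted p = 0.0364). Of all tested genes 3.41% rose and 2.14% fell there.

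Feedback inhibitors of ERK and EGR were mostly lower in knockdown cells. Of 18 tested, 5 rose and 11 fell with CDK8.1593 and 4 rose and 11 fell with CDK8.1830, where 30.1% and 29.0% of all tested genes rose and 29.5% and 28.1% fell, with a median of -0.28 in both beside 0.01 and 0.01 over all tested genes. Spry4, a Sprouty inhibitor of receptor signalling, fell (-1.21 and -1.11), Spred3 (-1.77 and -1.10) and Dusp4, a nuclear MAP kinase phosphatase, (-0.77 and -0.77), whereas Dusp5, an ERK phosphatase, rose by 0.75 and 0.76. With SnxB in cntrl cells Dusp14 (-0.59) and Dusp8 (-0.55) fell and Dusp4 (0.22) rose, where 2.14% of all tested genes fell and 3.41% rose.

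Genes that textbooks give as AP-1 targets were mostly lower. Of 25 tested of 30, CDK8.1593 raised 2 and lowered 20 and CDK8.1830 raised 2 and lowered 16, where 30.1% and 29.0% of all tested genes rose and 29.5% and 28.1% fell, with medians of -0.34 and -0.36. The collagenase and stromelysin genes fell furthest among those named. Mmp3 went from 99.6 CPM in cntrl DMSO to 0.578 and 2.12 CPM, Mmp1a from 21.4 to 0.309 and 0.935 CPM and Mmp13 from 11.1 to 0.0519 and 0.181 CPM. With SnxB in cntrl cells 4 of 25 fell and 1 rose, where 2.14% of all tested genes fell and 3.41% rose. Mmp3 (-0.48), Mmp1a (-0.45) and Plau, the urokinase gene (-0.41), fell, and Ereg, an EGF receptor ligand (0.42), rose.

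Cytoskeletal genes of the SRF and MRTF branch rose with SnxB in part. Of 14 tested of 17, 10 rose in cntrl cells, with a median of 0.29 beside 0.01 over all tested genes, and 7 and 8 rose in CDK8.1593 and CDK8.1830 cells, where 3.41%, 0.916% and 0.987% of all tested genes rose in cntrl, CDK8.1593 and CDK8.1830 cells. Acta2, smooth muscle actin, rose by 1.56, Myl9, a myosin light chain, by 1.70 and Actg2 by 2.39 in cntrl cells, while Jund fell and Fos stayed near 0. With the hairpins 1 rose and 8 fell for CDK8.1593 (median -0.27), and 3 rose and 5 fell for CDK8.1830 (median -0.03). Of all tested genes 30.1% and 29.0% rose there and 29.5% and 28.1% fell. Zyx, zyxin, was at -0.93 and -0.84. Of 6 tested heat shock genes, 3 rose and 1 fell with CDK8.1593 and 4 rose with CDK8.1830, led by Hsp90aa1 (1.22 and 1.18). Again 30.1% and 29.0% of all tested genes rose and 29.5% and 28.1% fell. Of the 6 tested Mediator kinase module genes, 1 rose and 2 fell with each hairpin, beside the same shares of all tested genes. Cdk19 and Cdk8 were among them.

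**Figure D5:**
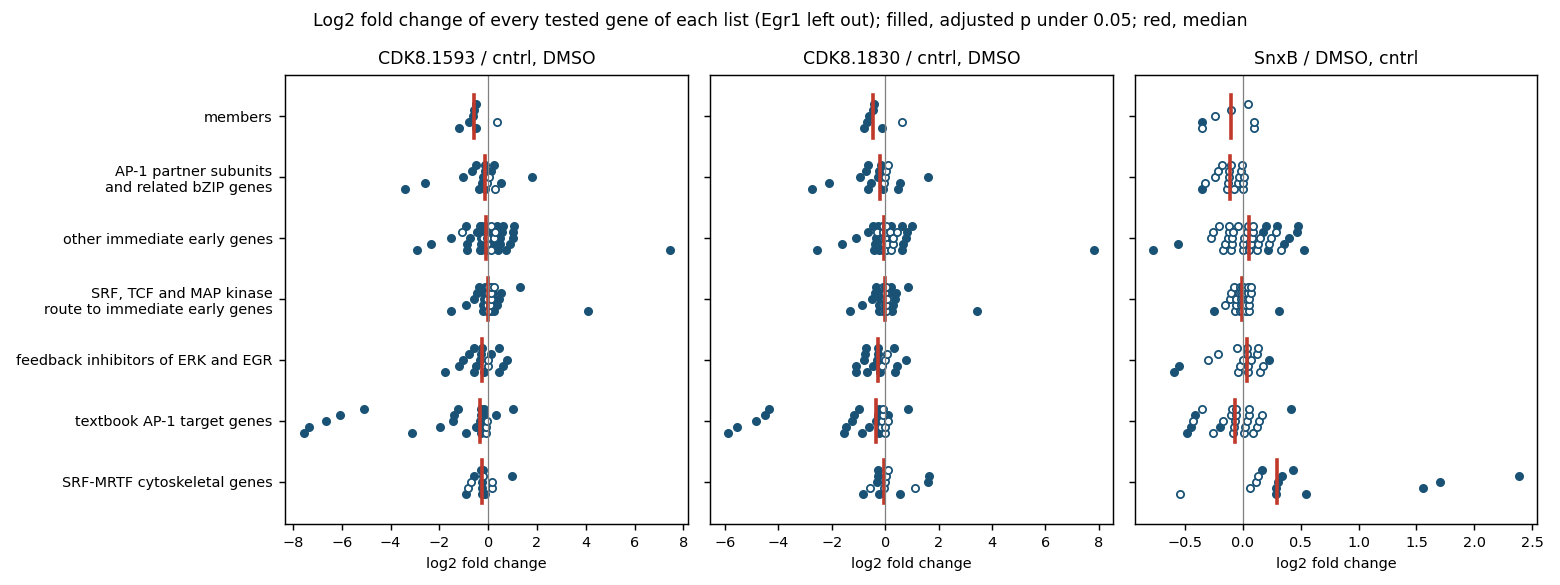
Log2 fold change (x axis) of every tested gene of the members and 6 fixed lists (y axis) for CDK8.1593 and CDK8.1830 against cntrl in DMSO and for SnxB against DMSO in cntrl cells, with filled points for adjusted p under 0.05 and a red line at the list median (Egr1 left out, own x scale in each panel). With the hairpins the members' median is the lowest of the lists, at -0.58 and -0.45, and with SnxB the cytoskeletal list lies to the right of 0.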

How the data were processed

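RNA of 18 libraries of E0771 cells was sequenced as single-end reads of 50 bases. Per the labels and the study's methods, the authors trimmed reads with Trimmomatic, aligned them to GRCm38 with STAR and counted them per gene on the reverse strand with featureCounts 1.5.1 (GENCODE M13), and deposited raw counts. Groups came from the sample labels. Replicate numbers in the file headers of CDK8.1830 differ from the sample titles, which were used. Gene symbols were matched for 50376 of 50686 genes.

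Genes were kept by filterByExpr (minimum count 10, minimum total 15), scaled by TMM and tested with edgeR 4.0.16 (R 4.3.3) in 1 quasi-likelihood fit over 18 libraries, with Benjamini-Hochberg adjustment over 12772 genes. SE is the log2 fold change divided by the root of F. CPM per kb divides by the summed exon length. The fit was tested on simulated data. Named genes of a list were up to 4 for the hairpins, by the smaller of both changes, and up to 4 for SnxB in cntrl cells, among genes that passed. Some of these are left out of the text. Alternatives were DESeq2 1.42.0, other scalings and filters, a replicate block, the groups compared alone and each library left out. Depth was 16452260 to 22664693 counts, and intervals on counts cover counting error only. The members and lists were chosen with earlier results of these data known. A few genes of the lists are not reported here by name.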

Additional observations from a re-analysis of the deposited data

Results flagged for a closer look

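With SnxB, every library of Fosl1 moved up in cntrl cells (0.10 on the log2 scale) and down in CDK8.1830 cells (-0.18), so that SnxB and DMSO libraries did not overlap in either line. The same held for Jun, at 0.09 in cntrl and -0.15 in CDK8.1830 cells. The interaction did not pass for either gene with the filter on low counts (adjusted p = 0.276 for Fosl1 and 0.468 for Jun, edgeR quasi-likelihood test). With no filter the Fosl1 interaction passed (-0.30, adjusted p = 0.024), as did SnxB in CDK8.1830 for Fosl1 (-0.18, adjusted p = 0.0361). The fit with no filter called 44 of all genes for the CDK8.1830 interaction, against 7 with the filter. Such opposite shifts without overlap were seen for 52 of all tested genes (0.407%).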

How the results depend on the processing

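Over the member results, another scaling by DESeq2 size factors, a filter at more than 1 CPM in 3 libraries (which drops Egr1) and the replicate block kept every direction and side of the threshold. The correlation of deviations between libraries with the same replicate number in their titles ran from -0.16 to 0.247. With 3 libraries a group, and other numbers in the CDK8.1830 file headers, this cannot show whether libraries were paired. Under the replicate block 6, 6, 2, 2, 1, 7, 7 and 2 members passed, in the order CDK8.1593 and CDK8.1830 in DMSO, SnxB in cntrl, CDK8.1593 and CDK8.1830, CDK8.1593 and CDK8.1830 in SnxB, and CDK8.1830 against CDK8.1593, and the CDK8.1830 interaction called 11 genes against 7. With a fold over 2 asked as well, 1, 0, 1, 0, 0, 2, 1 and 0 members passed in that order, and 1598, 1407, 39, 14, 16, 1636, 1379 and 277 of all genes, with 5 and 2 for the interactions. For SnxB in cntrl cells 1 member passed with DESeq2 (which gave no adjusted p for Egr1), with the filter at 1 CPM and with only the groups compared. That last fit also left 1 member for SnxB in CDK8.1593 and 1 between hairpins, 50 genes for SnxB in CDK8.1593 and 13 and 4 for the interactions. DESeq2 called 60 and 21 genes for the interactions. With no filter 2 members passed for SnxB in CDK8.1830 (Jund, Fosl1) and 2 for each interaction (Egr1 in both, with Fosl2 for CDK8.1593 and Fosl1 for CDK8.1830), and all genes numbered 567 for SnxB in CDK8.1593 and 389 and 44 for the interactions. The cause of these shifts was not tested. Only that fit tests Fos, at 2.09 for CDK8.1830 against cntrl in SnxB (adjusted p = 0.0217). With library totals SnxB in cntrl called 370 genes higher and 400 lower, against 435 and 273.

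With 1 library left out, 1 to 2 members passed for SnxB in cntrl, 1 to 2 for SnxB in CDK8.1593 and 1 to 4 between hairpins, the 4 without CDK8.1593 DMSO replicate 3. All genes ran from 446 to 548 for SnxB in cntrl (lowest moved values 446 and 458), 112 to 443 for SnxB in CDK8.1593 (443 without CDK8.1593 SnxB replicate 1, 112 without CDK8.1593 DMSO replicate 1), 141 to 163 for SnxB in CDK8.1830, 13 to 36 for the CDK8.1593 interaction (moved values 13 to 25) and 1 to 10 for the CDK8.1830 interaction (moved values 1 to 3). Without cntrl SnxB replicate 2, Egr1 turned to -0.48 for SnxB in cntrl and to 0.36 for CDK8.1830 against cntrl in SnxB, while without replicate 1 it reached 7.925 and -8.05. Depth limits Fos, Egr2, Fosb and Egr1, whose libraries, the 1 high one aside, hold 34 reads at most.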
